A study of Mus musculus with 60 samples.

Results

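The 36 genes described here encode the enzymes and carriers that take glucose to lactate or into the mitochondrion as acetyl-CoA, from the glucose transporter Slc2a1 to the pyruvate dehydrogenase complex, its kinases and phosphatases and the mitochondrial pyruvate carrier. They were listed by name, but with earlier results of these data known, and 36 of 36 were found among the 24260 gene symbols of the data. Each gene was represented by its RefSeq transcript with the highest RPKM (reads scaled by gene length and library size) summed over the libraries. Nascent RNA-seq was measured in E14 mouse embryonic stem cells 72 h after transfection with an siRNA against Esrrb (siEsrrb) or with a control siRNA (siCtrl), 2 libraries per group. Both groups were grown in serum with LIF, and the labels give no other difference between them than the siRNA. RNA was taken from the chromatin pellet, which is rich in unfinished transcripts, and reads cover introns as well as exons. The 4 libraries are called replicate 1 and replicate 2 in each group. Only the number 2 is in the titles, and the unnumbered library of each group was called replicate 1. Nothing in the labels says that the libraries of a group came from separate cultures, so p-values speak of the spread between libraries and not of that between cultures.

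Glycolysis splits glucose into pyruvate. Hexokinase traps glucose in the cell, phosphofructokinase commits it to the pathway, and pyruvate kinase closes it. Lactate dehydrogenase then turns pyruvate into lactate, which leaves through monocarboxylate transporters, while the mitochondrial pyruvate carrier and the pyruvate dehydrogenase complex lead it towards the citric acid cycle. Pyruvate dehydrogenase kinases switch that complex off by phosphorylation and the phosphatases Pdp1 and Pdp2 switch it on again. Most steps have several isozymes encoded by separate genes. Several of these genes are textbook targets of the hypoxia-inducible factor, and primed pluripotent cells are known to lean more on glycolysis than naive ones. Esrrb is an orphan nuclear receptor of the naive pluripotency network.

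The libraries held 22363943 and 61857158 reads in siEsrrb replicates 1 and 2, against 24764879 and 68002338 in siCtrl replicates 1 and 2. Replicate 2 was thus the deeper pair, and the submitters' processing notes name Bowtie 1.1.1 and Bowtie2 for replicate 1 alone. Esrrb itself had 1.50 and 2.08 scaled RPKM in siEsrrb, against 3.39 and 3.10 in siCtrl. Both siEsrrb values lay below both siCtrl values, with a log2 fold change of -0.72 (SE 0.15, limma adjusted p = 0.28). The 8 markers of embryonic stem cells all passed the expression minimum, with a summed level of 96.2 and 79.9 scaled RPKM in siEsrrb, against 94.0 and 85.7 in siCtrl. Among them Pou5f1, the core pluripotency factor Oct4, had both siEsrrb values above both siCtrl values (log2 fold change 0.42, SE 0.19), while Zfp42 (-0.85, SE 0.15) and Nanog (-0.47, SE 0.16) had them below. Of the naive pluripotency genes, 14 of 14 tested had both siEsrrb values below both siCtrl values, where 22.0% of all tested genes did. The 1 naive gene under the expression minimum had them above. Of the formative or primed genes, 6 of 6 tested had them above, where 21.9% of all tested genes did. Both lists were chosen with these data known. In bulk samples like these, fewer cells of a type and less RNA per cell cannot be told apart.

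Throughout, levels are the deposited RPKM after a scaling between libraries by multipliers of 0.925 to 1.09. Fold changes are siEsrrb over siCtrl on the log2(scaled RPKM + 0.5) scale, which understates the change of low genes. The 9739 genes with a mean of at least 0.5 RPKM were tested with limma, adjusted by the Benjamini-Hochberg method over all of them. Genes are called lower (or higher) in both siEsrrb libraries when both lay below (or above) both siCtrl libraries.

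No member passed an adjusted p of 0.05, and the share of all tested genes that did was 0.00%. The smallest adjusted p among all genes was 0.25, and that among the 30 tested members was 0.334. At an unadjusted p under 0.05 limma gave 4 members lower (Hk2, Pfkp, Pdk1 and Mpc1) and 1 higher (Eno3), against 5.32% and 5.93% of all tested genes. The voom fit on recovered reads, without a replicate block, also passed 0 members and 0 genes after adjustment, with 1194 genes at an unadjusted p under 0.05.

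Of the 30 tested members, 6 had both siEsrrb values below both siCtrl values, where 22.0% of all tested genes did, and 5 had them above, where 21.9% did. The other 19 overlapped between the groups. Over all 36 members, 7 lay below and 5 above, where 18.5% and 20.8% of all genes above 0 did. These counts lie near the background shares with all 4 libraries. The number of members apart is therefore no result about the pathway, and the account that follows is of single genes. The median log2 fold change over the tested members was -0.01, and over all tested genes it was -0.00087. Sizes differed by direction: the 5 largest tested members by fold on the log2(scaled RPKM + 0.5) scale, Ldhb, Pfkp, Pdk1, Hk2 and Gpi1, were on the lower side. The order depends on that scale: voom gave -0.55 for Mpc1, against -0.42 for Hk2 and -0.38 for Gpi1. Among members apart by at least 0.3 on the log2 scale, 5 were lower (Ldhb, Pfkp, Pdk1, Hk2 and Mpc1), against 4.68% of all tested genes, and 1 was higher (Slc16a3), against 7.03%. With 1 library left out, fewer libraries have to lie apart, and more genes of any kind do. The lower members then numbered 15 of 30 without siEsrrb replicate 2, where 39.8% of all tested genes were lower, and 19 of 30 without siCtrl replicate 1, where 39.2% were. The higher members numbered 9 of 30 without siEsrrb replicate 1, where 33.5% of all tested genes were higher, and 13 of 30 without siCtrl replicate 2, where 35.2% were.

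**Figure D1:**
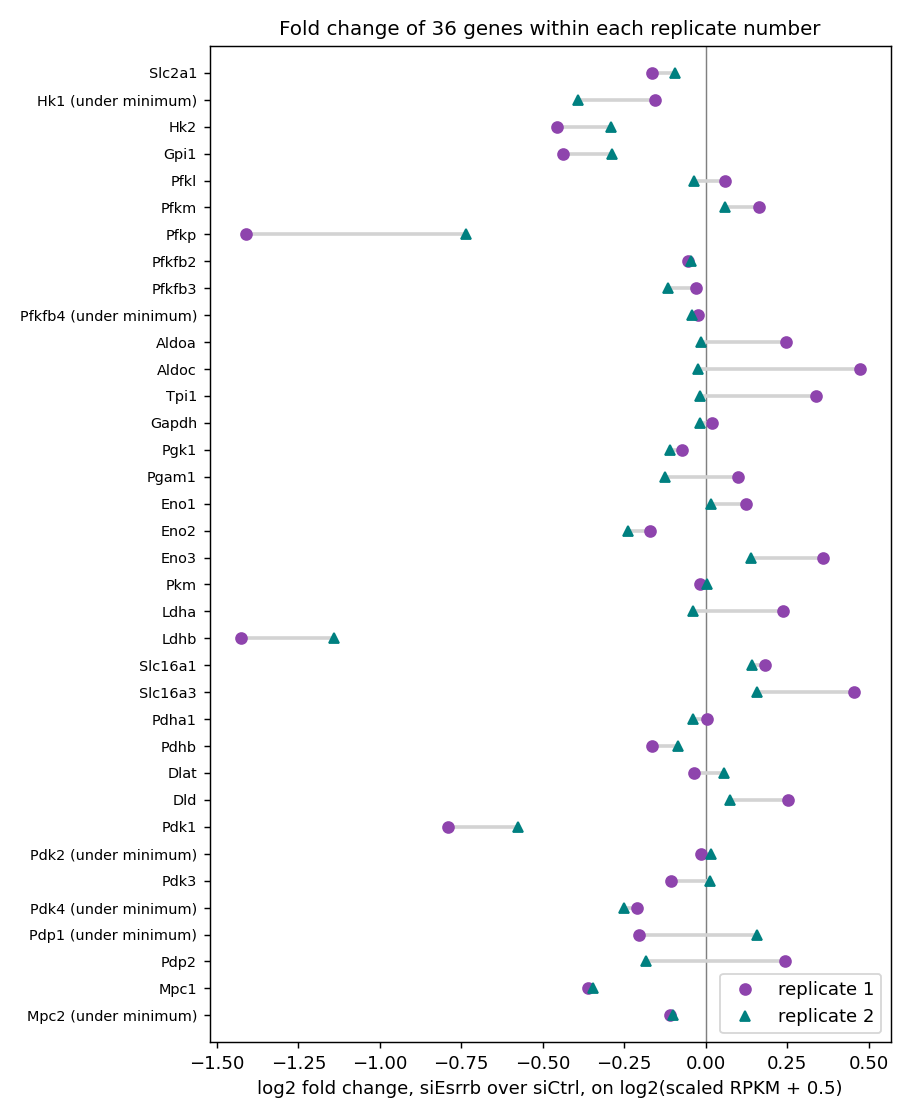
Fold change of siEsrrb over siCtrl for the 36 genes, from glucose uptake at the top to the pyruvate carrier at the bottom, within replicate 1 (circles) and within replicate 2 (triangles), on the log2(scaled RPKM + 0.5) scale. Most genes lie near 0, while Pfkp, Ldhb and Pdk1 lie below -0.5 in both replicates; genes marked as under the minimum had a mean below 0.5 RPKM and were not tested.

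The genes differed widely in level, which RPKM allows to be compared since it is per length. In siCtrl, the mean ran from 0.185 scaled RPKM for Pdk2 to 25.1 for Aldoa, with a median of 2.47. In order of level, 6 members stood at 10 RPKM or more: Aldoa, Pkm, Gpi1, Gapdh, Eno1 and Slc2a1. Another 18 lay between 1 and 10, and 12 lay under 1. The 6 members below the expression minimum were Hk1, Pfkfb4, Pdk2, Pdk4, Pdp1 and Mpc2. The highest of these had a mean over all libraries of 0.307 RPKM, and the lowest tested member one of 0.653 RPKM. Reads per library ran from 22 (Pdk4 in siEsrrb replicate 1) to 43000 (Gpi1 in siCtrl replicate 2).

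On the log2(scaled RPKM + 0.5) scale, the 4 largest folds among members apart were those of Pfkp, Pdk1, Ldhb and Hk2. In percent of control, Mpc1 lay lower (66.5% and 69.1%) than Hk2 (70.4% and 80.0%). Promoters of Pfkp, Pdk1, Ldhb and Hk2 are shown here, since their nascent RNA differed in the same direction. They are the 250 bases before the annotated start from RefSeq (GRCm38.p6), written along the gene, with matches to the hypoxia response core in capitals (ACGTG or GCGTG on either strand, so that CACGT is the reverse complement of ACGTG). Pfkp lies at chr13:6648772-6649021 on the minus strand, Pdk1 at chr2:71872974-71873223 on the plus strand, Ldhb at chr6:142507958-142508207 on the minus strand and Hk2 at chr6:82774455-82774704 on the minus strand. Pdk1 has 2 annotated start windows, of which the upstream one is given.
Pfkp: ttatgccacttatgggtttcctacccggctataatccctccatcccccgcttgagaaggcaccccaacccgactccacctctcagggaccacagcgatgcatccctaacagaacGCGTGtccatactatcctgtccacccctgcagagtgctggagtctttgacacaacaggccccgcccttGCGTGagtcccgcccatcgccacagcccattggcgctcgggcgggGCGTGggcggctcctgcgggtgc
Pdk1: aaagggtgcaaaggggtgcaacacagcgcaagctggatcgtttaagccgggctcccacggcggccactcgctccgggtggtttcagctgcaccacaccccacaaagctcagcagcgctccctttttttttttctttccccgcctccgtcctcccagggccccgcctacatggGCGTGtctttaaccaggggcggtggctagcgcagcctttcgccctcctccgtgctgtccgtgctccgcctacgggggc
Ldhb: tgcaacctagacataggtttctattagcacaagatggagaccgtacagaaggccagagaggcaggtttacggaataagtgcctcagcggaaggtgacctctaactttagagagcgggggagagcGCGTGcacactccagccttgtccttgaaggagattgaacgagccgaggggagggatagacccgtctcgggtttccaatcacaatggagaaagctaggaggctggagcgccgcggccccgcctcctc
Hk2: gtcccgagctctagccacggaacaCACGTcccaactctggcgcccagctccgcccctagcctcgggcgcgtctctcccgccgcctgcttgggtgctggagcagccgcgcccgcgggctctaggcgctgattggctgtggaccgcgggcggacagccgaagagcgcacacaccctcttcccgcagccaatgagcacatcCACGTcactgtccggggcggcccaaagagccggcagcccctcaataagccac
The Pfkp stretch held 3 matches to GCGTG, that of Pdk1 held 1 and that of Ldhb held 1, while the Hk2 stretch held 2 matches to ACGTG. None of the 4 windows, taken to 50 bases past the start, held AAGGTCA, the half-site core of estrogen-related receptors, on either strand. No match says only that these letters are not in this window.

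RefSeq promoter windows of 300 bases (250 before and 50 after the start) were found for 35 members, all but Pdp1, with 52 windows in all. AAGGTCA stood in 2 of these 52 windows (3.85%), those of Eno1 and Tpi1, and in 4.72% of all 32851 windows. ACGTG or GCGTG stood in at least 1 window of 30 of the 35 members, where 46.7% of all 27025 genes had such a window. By window, the share was 76.9% of member windows, against 43.8% of all windows. Member windows and all windows were not matched by base composition. Windows that hold both motifs count under each: GCGTG was in 55.8% of member windows and 32.4% of all windows, and ACGTG in 44.2% of member windows and 19.6% of all windows. The E-box CACGTG, which contains ACGTG on both strands, was in 13.5% of member windows and 7.15% of all windows. These matches are descriptions of letters and not of binding.

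At glucose uptake and trapping, the transporter Slc2a1 had 9.58 and 10.9 scaled RPKM in siEsrrb, against 10.8 and 11.6 in siCtrl, and the groups overlapped. Hk2, a hexokinase abundant in proliferating cells, had 3.77 and 4.16 scaled RPKM in siEsrrb, against 5.35 and 5.20 in siCtrl, from 3829, 13426, 6240 and 18910 reads. Both siEsrrb libraries lay below both siCtrl libraries, at 70.4% and 80.0% of control in replicates 1 and 2. The means were 3.96 ± 0.28 in siEsrrb and 5.27 ± 0.104 in siCtrl (SD, n = 2 each), and the log2 fold change was -0.37 (SE 0.09, limma adjusted p = 0.334). Of the members apart by at least 0.3, Hk2 had replicates that differed little within a group, 1.10-fold in siEsrrb and 0.972-fold in siCtrl (replicate 2 over 1).

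Hk1, the widely expressed hexokinase, had only 0.145 and 0.307 scaled RPKM in siEsrrb, against 0.218 and 0.559 in siCtrl. The replicate 2 library was the higher of each group and the groups overlapped. Hk2 made up 96.3% and 93.1% of the summed hexokinase RPKM in siEsrrb, against 96.1% and 90.3% in siCtrl, and these shares overlapped. The exact permutation p was 0.667 (n = 2 each), from a test that cannot go below 0.333 and so cannot show a difference. The summed level was 70.3% and 77.6% of control in replicates 1 and 2. Gpi1, which turns glucose 6-phosphate into fructose 6-phosphate, had 9.03 and 16.4 scaled RPKM in siEsrrb, against 12.4 and 20.2 in siCtrl. It was at 72.7% and 81.5% of control within replicate numbers, while the groups overlapped because both replicate 2 libraries were the higher ones (log2 fold change -0.36, SE 0.39, limma adjusted p = 0.77).

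The phosphofructokinase isozymes differed among themselves. Pfkp, the platelet type, had 1.84 and 3.97 scaled RPKM in siEsrrb, against 5.71 and 6.94 in siCtrl, from 2602, 17852, 9293 and 35152 reads. Both siEsrrb libraries lay below both siCtrl libraries, and siEsrrb replicate 1 was by far the lowest. Pfkp reached 32.1% of control in replicate 1 and 57.2% in replicate 2, with means of 2.90 ± 1.51 in siEsrrb and 6.33 ± 0.864 in siCtrl (SD, n = 2 each). The log2 fold change was -1.07 (SE 0.35, limma unadjusted p = 0.0341, adjusted p = 0.412), and -0.60 without siEsrrb replicate 1. Its annotated span overlaps that of Pitrm1, a mitochondrial protease. Pitrm1 had 3.26 and 3.23 scaled RPKM in siEsrrb, against 2.69 and 2.97 in siCtrl, the direction opposite to that of Pfkp.

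The other phosphofructokinases were not lower. Pfkl, the liver type, had 3.48 and 3.45 scaled RPKM in siEsrrb, against 3.32 and 3.55 in siCtrl. The siEsrrb values lay within the siCtrl range, with a log2 fold change of 0.01 (SE 0.08, limma adjusted p = 0.971) whose sign turned to -0.03 without scaling between libraries. Pfkm, the muscle type, had 0.835 and 0.990 scaled RPKM in siEsrrb, against 0.692 and 0.930 in siCtrl. It was the higher one in siEsrrb within each replicate number, but the groups overlapped (log2 fold change 0.11, SE 0.12, limma adjusted p = 0.782), and its span overlaps that of Senp1.

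Pfkp was the most abundant of these isozymes in siCtrl and Pfkl in siEsrrb replicate 1. Pfkp made up 29.8% and 47.2% of the family's summed RPKM in siEsrrb, against 58.7% and 60.7% in siCtrl, a difference of -21.2 percentage points that was -12.6 points without siEsrrb replicate 1. Pfkl made up 56.6% and 41.0% in siEsrrb, against 34.1% and 31.1% in siCtrl. Pfkm made up 13.6% and 11.8% in siEsrrb, against 7.11% and 8.15% in siCtrl. For each of these 3 shares the groups did not overlap, and the exact permutation p was 0.333, the smallest that 2 against 2 libraries allow. The ratio of Pfkp to Pfkl was 0.527 and 1.15 in siEsrrb, against 1.72 and 1.95 in siCtrl. The ratio of Pfkl to Pfkm overlapped, at 4.17 and 3.49 in siEsrrb and 4.80 and 3.82 in siCtrl. The family's summed level was 63.3% and 73.7% of control in replicates 1 and 2.

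**Figure D2:**
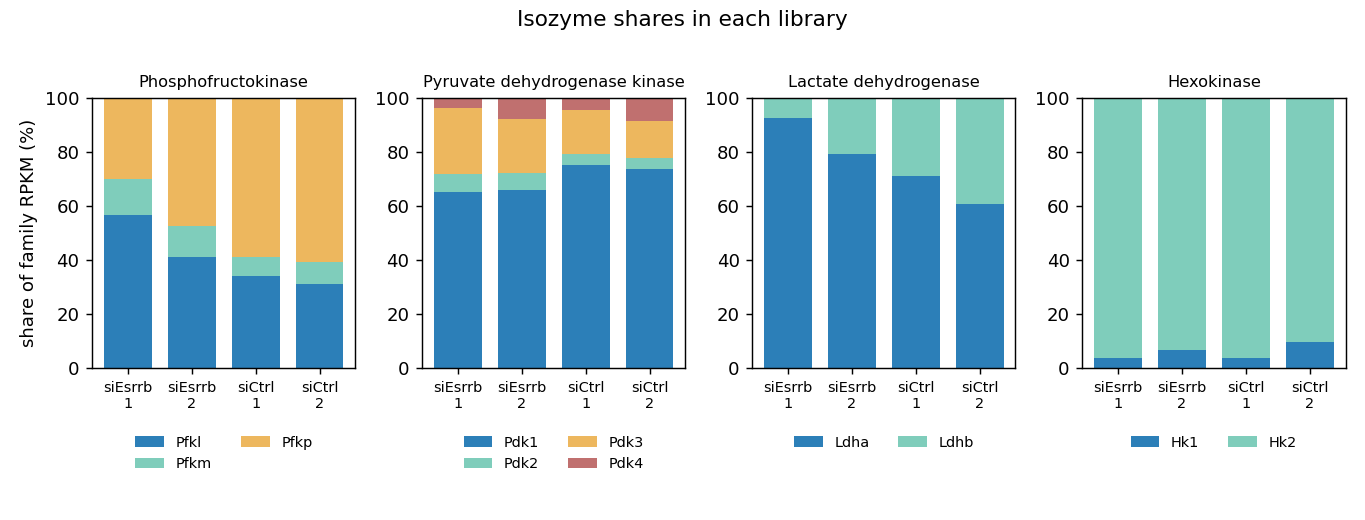
Share of each isozyme in the summed scaled RPKM of its family (%, stacked to 100) in the siEsrrb and siCtrl libraries, with the replicate number under each bar. The shares of Pfkp, Pdk1 and Ldhb are smaller in both siEsrrb libraries than in both siCtrl libraries, while Hk2 takes over 90% in every library.

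The bifunctional enzymes that set the level of fructose 2,6-bisphosphate, the activator of phosphofructokinase, showed no separation. Pfkfb2 had 0.871 and 0.954 scaled RPKM in siEsrrb, against 0.924 and 1.00 in siCtrl, and Pfkfb3 had 0.856 and 1.14, against 0.883 and 1.28. Pfkfb4 had 0.271 and 0.316 in siEsrrb, against 0.284 and 0.340 in siCtrl. All 3 were lower in siEsrrb within both replicate numbers and all 3 overlapped, with the summed level at 95.5% and 92.1% of control.

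The steps that split the sugar and carry it down to pyruvate, which include the most abundant members, changed little on average. Aldoa, the main aldolase, had 24.7 and 29.1 scaled RPKM in siEsrrb, against 20.8 and 29.4 in siCtrl. Pkm, pyruvate kinase, had 23.4 and 24.9 in siEsrrb, against 23.7 and 24.8 in siCtrl, and Gapdh had 16.0 and 14.5, against 15.8 and 14.7. These 3 overlapped between the groups, with log2 fold changes of 0.12 (SE 0.22), -0.01 (SE 0.12) and 0.00082 (SE 0.12) in that order. Tpi1, Pgk1 and Pgam1, which act between the aldolases and enolase, also overlapped. Their log2 fold changes were 0.16 (SE 0.17), -0.09 (SE 0.19) and -0.01 (SE 0.11) in that order. Within replicate 1, Aldoa and Tpi1 were at 119% and 129% of control, against 98.9% and 98.8% within replicate 2. Aldoc, the brain aldolase, ranged widely among siCtrl libraries, at 0.801 and 1.04 in siEsrrb and 0.438 and 1.07 in siCtrl, the lowest value resting on 37 reads.

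Enolases, which make phosphoenolpyruvate, included a pair that was slightly higher. Eno1, the common form, had 15.5 and 14.8 scaled RPKM in siEsrrb, against 14.2 and 14.6 in siCtrl, and both siEsrrb libraries lay above both siCtrl libraries by a log2 fold change of 0.07 (SE 0.11), though they overlapped without scaling between libraries. Eno3, the muscle form, had 1.46 and 1.26 in siEsrrb, against 1.02 and 1.10 in siCtrl, with a log2 fold change of 0.25 (SE 0.08, limma unadjusted p = 0.0363, adjusted p = 0.413). Its span overlaps that of the more abundant profilin gene Pfn1, which had 18.8 and 12.9 scaled RPKM in siEsrrb, against 12.5 and 10.3 in siCtrl. Whether Pfn1 reads enter the Eno3 value was not tested. Eno2, the neuronal form, had 0.414 and 0.898 in siEsrrb, against 0.528 and 1.15 in siCtrl, lower within each number and overlapping between groups.

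Ldhb had the largest fold change of the members. It encodes the heart-type lactate dehydrogenase subunit, which favours the conversion of lactate to pyruvate. It had 0.555 and 1.76 scaled RPKM in siEsrrb, against 2.34 and 4.49 in siCtrl, from 202, 2037, 976 and 5848 reads. Both siEsrrb libraries lay below both siCtrl libraries, and in each group the replicate 2 library was higher, 3.18-fold in siEsrrb and 1.92-fold in siCtrl. Ldhb reached 23.8% (replicate 1) and 39.3% (replicate 2) of control, with means of 1.16 ± 0.854 in siEsrrb and 3.41 ± 1.52 in siCtrl (SD, n = 2 each). The log2 fold change was -1.28 (SE 0.48, limma unadjusted p = 0.0528, adjusted p = 0.446), and -0.73 without siEsrrb replicate 1. The 95% Poisson interval of the lowest library, siEsrrb replicate 1, was 0.481 to 0.637 scaled RPKM and covers counting error only.

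Ldha, the muscle-type subunit that favours lactate, had 6.88 and 6.72 scaled RPKM in siEsrrb, against 5.76 and 6.91 in siCtrl, and overlapped (log2 fold change 0.10, SE 0.12, limma adjusted p = 0.81). The ratio of Ldhb to Ldha was therefore 0.0806 and 0.262 in siEsrrb, against 0.405 and 0.650 in siCtrl. Ldhb made up 7.46% and 20.8% of the pair's summed RPKM in siEsrrb, against 28.8% and 39.4% in siCtrl (exact permutation p = 0.333, n = 2 each). Its share was lower in both siEsrrb libraries, and the difference of -20.0 percentage points was -13.3 points without siEsrrb replicate 1.

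The lactate exporters were on the higher side. Slc16a3, the monocarboxylate transporter of strongly glycolytic cells, had 6.47 and 5.99 scaled RPKM in siEsrrb, against 4.58 and 5.32 in siCtrl, from 661, 1943, 537 and 1944 reads. Both siEsrrb libraries lay above both siCtrl libraries, at 141% and 113% of control in replicates 1 and 2 (means 6.23 ± 0.337 in siEsrrb and 4.95 ± 0.524 in siCtrl, SD, n = 2 each). The log2 fold change was 0.31 (SE 0.11, limma adjusted p = 0.446). Its span overlaps that of the kinase gene Csnk1d, which had 2.88 and 2.57 scaled RPKM in siEsrrb, against 2.80 and 2.40 in siCtrl, and overlapped between groups. Slc16a1, the widely expressed transporter, had 2.62 and 2.29 in siEsrrb, against 2.25 and 2.02 in siCtrl, and was also higher in both (log2 fold change 0.16, SE 0.10, limma adjusted p = 0.597). The split between these 2 transporters overlapped between the groups, with Slc16a3 at 71.2% and 72.4% of their sum in siEsrrb and 67.1% and 72.5% in siCtrl.

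**Figure D3:**
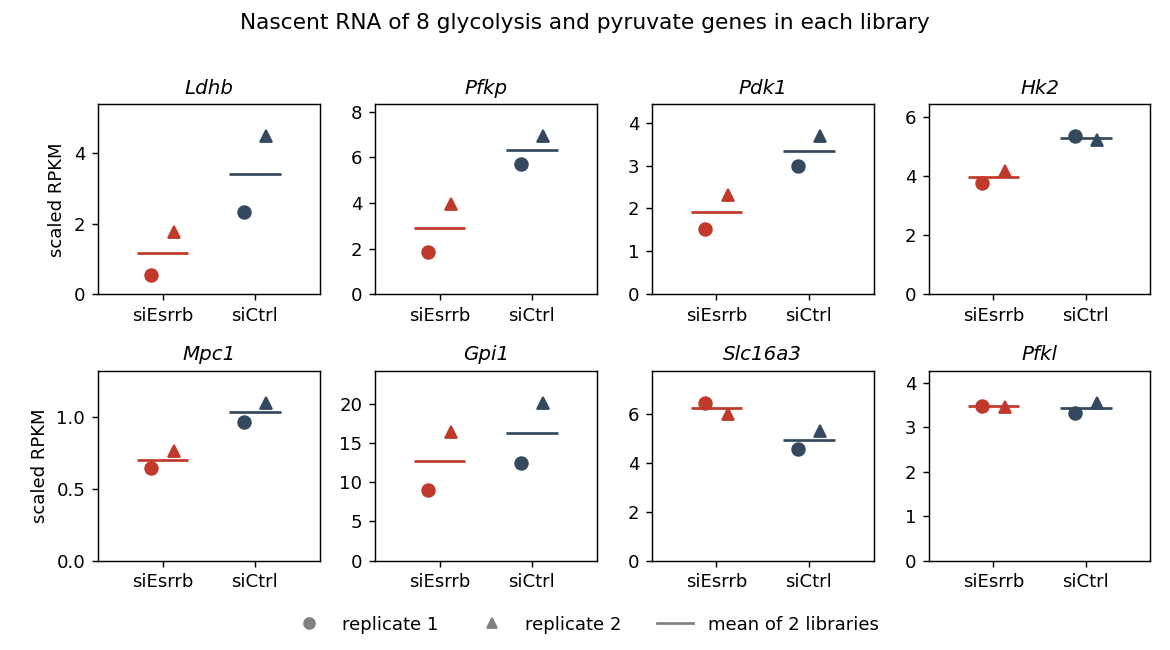
Scaled RPKM of 8 members in each library, siEsrrb left and siCtrl right, with circles for replicate 1, triangles for replicate 2 and a line at the mean of the 2 libraries. Ldhb, Pfkp, Pdk1, Hk2 and Mpc1 lie lower in both siEsrrb libraries, Slc16a3 lies higher, Gpi1 overlaps because its replicate 2 libraries are the higher ones, and Pfkl overlaps with nearly equal values.

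At the entry into the mitochondrion, Mpc1, a subunit of the mitochondrial pyruvate carrier, had 0.642 and 0.761 scaled RPKM in siEsrrb, against 0.967 and 1.10 in siCtrl, from 183, 688, 316 and 1122 reads. Both siEsrrb libraries lay below both siCtrl libraries, at 66.5% and 69.1% of control, the most even pair of ratios among the members apart by at least 0.3. The means were 0.702 ± 0.084 in siEsrrb and 1.03 ± 0.095 in siCtrl (SD, n = 2 each), and the log2 fold change was -0.35 (SE 0.09, limma unadjusted p = 0.0168, adjusted p = 0.342). Mpc2, the partner subunit, was under the expression minimum, with 0.151 and 0.195 in siEsrrb, against 0.201 and 0.245 in siCtrl. It too was lower in both siEsrrb libraries, at 74.9% and 79.5% of control, but not without scaling.

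The subunits of pyruvate dehydrogenase stayed within a narrow range. Pdha1 and Dlat overlapped between the groups, with log2 fold changes of -0.02 (SE 0.08) and 0.01 (SE 0.07). Pdhb was lower in both siEsrrb libraries, at 3.87 and 3.86 scaled RPKM against 4.39 and 4.13 in siCtrl (log2 fold change -0.12, SE 0.08). Dld, the subunit shared with other dehydrogenase complexes, was higher in both, at 1.33 and 1.26 against 1.03 and 1.17 in siCtrl (0.16, SE 0.07), and overlapped without scaling.

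Among the kinases that switch this complex off, Pdk1 was the most abundant and the one with the largest fold on the log2(scaled RPKM + 0.5) scale. It had 1.52 and 2.31 scaled RPKM in siEsrrb, against 2.99 and 3.69 in siCtrl, from 958, 4619, 2163 and 8315 reads. Both siEsrrb libraries lay below both siCtrl libraries, at 50.8% and 62.6% of control in replicates 1 and 2. The means were 1.91 ± 0.558 in siEsrrb and 3.34 ± 0.494 in siCtrl (SD, n = 2 each), and the log2 fold change was -0.68 (SE 0.20, limma unadjusted p = 0.0253, adjusted p = 0.391). It was -0.44 without siEsrrb replicate 1. No other annotated gene overlaps Pdk1.

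Pdk3, the kinase encoded on the X chromosome, had 0.573 and 0.699 scaled RPKM in siEsrrb, against 0.654 and 0.688 in siCtrl, and overlapped (log2 fold change -0.05, SE 0.09, limma adjusted p = 0.885). Pdk2 and Pdk4, kinases known best from muscle and liver, were both under the expression minimum. Pdk2 had 0.151 and 0.221 in siEsrrb, against 0.157 and 0.213 in siCtrl, and overlapped. Pdk4 had 0.0827 and 0.275 in siEsrrb, against 0.174 and 0.423 in siCtrl. It was lower within both replicate numbers, at 47.6% and 65.0% of control, but overlapped between groups because replicate 2 was the higher library of each. Its lowest value rests on 22 reads, with a 95% Poisson interval of 0.0519 to 0.125 scaled RPKM.

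Pdk1 made up 65.3% and 65.9% of the summed kinase RPKM in siEsrrb, against 75.2% and 73.6% in siCtrl. The share of Pdk3 was 24.6% and 19.9% in siEsrrb, against 16.4% and 13.7% in siCtrl, and that of Pdk2 was 6.50% and 6.31%, against 3.95% and 4.25%. These 3 shares did not overlap between the groups (exact permutation p = 0.333 each, n = 2 each). Pdk4 behaved otherwise: the ratio of Pdk1 to Pdk4 was 18.4 and 8.40 in siEsrrb, against 17.2 and 8.73 in siCtrl, so that it differed by replicate number and hardly by siRNA. The summed level of the 4 kinases was 58.5% and 69.9% of control. The phosphatases did not follow them: Pdp2 had 0.912 and 0.769 scaled RPKM in siEsrrb, against 0.693 and 0.940 in siCtrl, and Pdp1 had 0.168 and 0.368, against 0.270 and 0.278, and neither moved the same way in the 2 replicate numbers.

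In all, the shares of 21 isozymes in 8 families were compared. Where the groups did not overlap the exact permutation p was 0.333, with a Benjamini-Hochberg adjusted value of 0.778 over the 21, so these shares are descriptions of 4 libraries. Of 10 ratios between isozymes, 6 did not overlap between groups, with an adjusted value of 0.556 each: Pfkp over Pfkl, Pfkp over Pfkm, Pdk1 over Pdk3, Pdk1 over Pdk2, Ldhb over Ldha and Mpc1 over Mpc2. All 6 were lower in siEsrrb, but each was written with a member lower in both siEsrrb libraries on top. Their shared direction therefore follows from how the ratios were written. Pfkp and Pdk1 enter more than once, and Mpc2 was under the expression minimum. No share for other pairs of genes is given.

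Replicate number separated the members more often than the siRNA did. Both replicate 2 libraries lay above both replicate 1 libraries for 18 of the 36 members, where 26.3% of all genes above 0 did, and below for 2 (Gapdh and Pdha1), where 18.0% did. Among the 30 tested members these numbers were 13 and 2, where 25.8% and 22.2% of all tested genes met the same rules. Large differences of this kind were seen in Gpi1, at 1.82-fold in siEsrrb and 1.62-fold in siCtrl, in Eno2, at 2.17-fold and 2.18-fold, in Hk1, at 2.12-fold and 2.56-fold, and in Pdk4, at 3.32-fold and 2.43-fold. Depth and the aligners named also differ between the numbers, and their part in these values was not tested. Within replicate numbers, 16 of the 36 members were lower in siEsrrb in both, where 32.4% of all genes above 0 were, and 6 were higher in both, where 34.5% were. Among the 30 tested members 12 were lower and 6 higher, where 39.6% and 37.8% of all tested genes were, so the lower count was near the background. The median log2 fold change of the tested members was -0.01 within replicate 1 and -0.04 within replicate 2.

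The other hypoxia response genes, a list of 18 non-members of which 17 were found, also differed by number. For 15 of the 17, both replicate 2 libraries lay above both replicate 1 libraries, where 26.3% of all genes above 0 did, and for 0 they lay below. The median log2 difference of replicate 2 over replicate 1 was 0.42 over these genes and 0.10 over the 36 members. Bhlhe40, a transcriptional repressor, had 1.64 and 3.29 scaled RPKM in siEsrrb, against 1.49 and 3.09 in siCtrl, and Bnip3, a mitophagy receptor, had 1.62 and 2.85, against 1.69 and 3.25; this pair was picked with the values known. By siRNA, 2 of the 14 tested genes of this list were lower in both siEsrrb libraries, where 22.0% of all tested genes were, and none higher (0), and the list's median log2 fold change was -0.10. The lower ones were Kdm3a, a histone demethylase (-0.28, SE 0.11), and Ak4, a mitochondrial adenylate kinase. Ak4 had 0.341 and 0.532 scaled RPKM in siEsrrb, against 1.07 and 1.09 in siCtrl, with a log2 fold change of -0.76 (SE 0.12, limma adjusted p = 0.25).

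**Figure D4:**
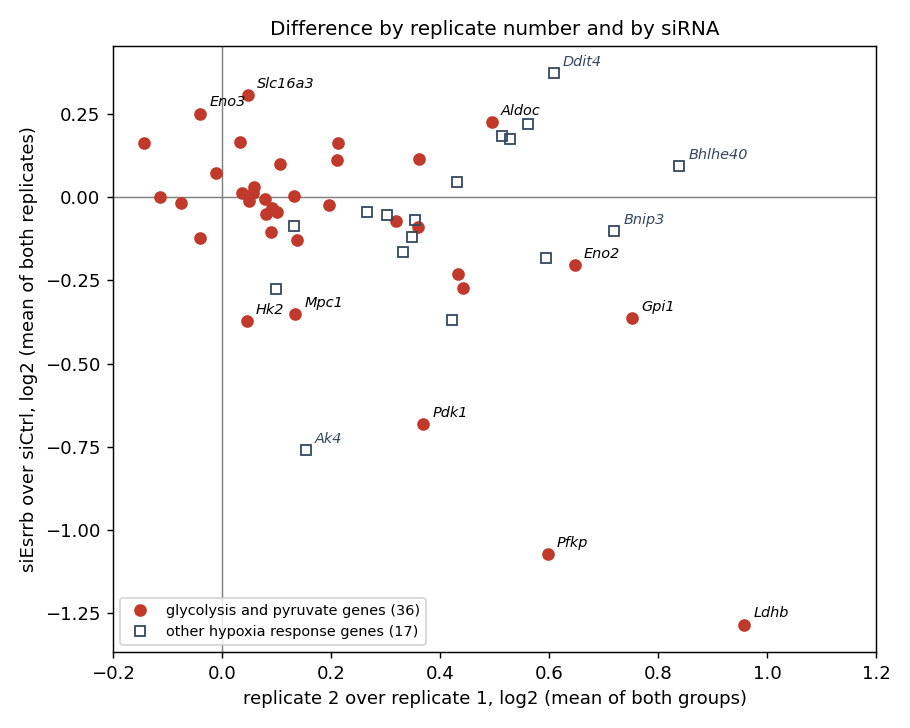
Each point is a gene, with the log2 difference of replicate 2 over replicate 1 (mean of both groups) across and that of siEsrrb over siCtrl (mean of both replicates) upward, for the 36 members (filled) and 17 other hypoxia response genes (open). The hypoxia response genes lie to the right of 0 and mostly near 0 on the upward axis, while Ldhb, Pfkp and Pdk1 are displaced on both axes and Hk2 and Mpc1 mainly downward.

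Other lists of sugar metabolism were looked at, for which the background is again 22.0% of all tested genes lower and 21.9% higher. Of 29 other genes of glycolysis and gluconeogenesis, 9 were tested, with 4 lower in both siEsrrb libraries, 0 higher and fold changes from -0.20 to 0.07. The lower ones were Slc2a3, a high-affinity glucose transporter with 21.5 and 23.9 scaled RPKM in siEsrrb against 25.6 and 25.8 in siCtrl, and Adpgk, Pdhx and Tigar. Of 7 pentose phosphate genes, 6 were tested, with 1 lower (Tkt) and 3 higher: G6pdx and Pgd, the enzymes that make NADPH, and Pgls between them, with log2 fold changes of 0.19, 0.21 and 0.22. Of 18 regulators of glycolysis, 14 were tested, with 1 lower (Prkaa1) and 5 higher. Hif1a, the oxygen-regulated subunit of the hypoxia-inducible factor, had 1.68 and 1.62 scaled RPKM in siEsrrb, against 1.60 and 1.56 in siCtrl. Mycn and Lin28b were among the higher ones, with log2 fold changes of 0.28 (SE 0.15) and 0.26 (SE 0.09). Lin28a had the largest fold change of these regulators, 0.47 (SE 0.25), and overlapped between the groups. The median log2 fold change was -0.11 over the 9 tested glycolysis and gluconeogenesis genes, 0.07 over the pentose phosphate genes and 0.02 over the regulators. No gene of these 3 lists passed the limma adjusted threshold.

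Genes that mark other cell types were looked at beside these values. Of 5 mesendoderm markers 0 reached the expression minimum, with a summed level of 0.200 and 0.127 scaled RPKM in siEsrrb and 0.169 and 0.164 in siCtrl. Of 10 fibroblast markers 4 were tested. Under the expression minimum, Thy1 was higher in both siEsrrb libraries, at 0.122 and 0.162 scaled RPKM against 0.0489 and 0.0733 in siCtrl. The other untested ones overlapped. Col3a1, the lowest of the list, was at 0 and 0.00642 in siEsrrb and 0.00111 and 0.00641 in siCtrl. The smooth muscle actin gene Acta2 was higher in both siEsrrb libraries, at 208% and 158% of control (log2 fold change 0.44, SE 0.09), as was Tagln at 198% and 156% (0.62, SE 0.17), while Vim and Fn1 overlapped. The summed fibroblast level was 17.0 and 18.6 in siEsrrb and 15.5 and 17.5 in siCtrl, most of it Fn1 and Vim. Of 7 primitive endoderm markers only Lama1 was tested (log2 fold change -1.27, SE 0.24), with a summed level of 0.786 and 1.43 in siEsrrb and 3.02 and 2.88 in siCtrl, and Gata6, Gata4 and Sox17 were below 0.06 in every library. Trophectoderm markers summed to 15.8 and 9.77 in siEsrrb and 10.2 and 7.01 in siCtrl, nearly all of it Krt8 and Krt18, which overlapped between the groups. Neuroectoderm markers summed to 8.34 and 8.12 in siEsrrb and 6.41 and 5.49 in siCtrl. Of 4 tested, Nes (0.87, SE 0.11) and Sox1 (0.38, SE 0.11) were higher in both siEsrrb libraries, Ncam1 (-0.68, SE 0.13) was lower in both, and Pax6 overlapped. The part of these in the members' values was not tested.

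Among non-members of the pluripotency lists, 12 naive genes were lower and apart by at least 0.3, against 4.68% of all tested genes. Their log2 fold changes ran from -0.45 to -1.45. They were Esrrb, Klf4, Klf5, Tbx3, Tfcp2l1, Nanog, Nr0b1, Nr5a2, Zfp42, Tcl1, Fgf4 and Tdh, which encodes threonine dehydrogenase. On the higher side, 5 formative or primed genes were apart by as much, against 7.03% of all tested genes. These were Pou3f1, Dnmt3a, Dnmt3b, Zic2 and Sall2, with log2 fold changes from 0.53 to 1.11. Ldhb, Pfkp and Pdk1 had fold changes within the range of these 12 naive genes, which depends on the cut of 0.3. Over all 14 tested naive genes the range was -0.11 to -1.45, which also holds Hk2, Mpc1, Gpi1 and some smaller changes of other members. The lists were chosen with these data known.

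Some values are limited by what lies near or resembles the gene. Of the 36 members, 15 overlap another annotated gene and 7 a protein-coding one, which are Pfkm, Pfkp, Pfkfb2, Tpi1, Eno3, Slc16a3 and Pdha1. Named pseudogenes exist for 8 members: Gapdh, Ldha, Ldhb, Aldoa, Pgk1, Tpi1, Pgam1 and Mpc1. How the authors treated strand and reads that align to several places is not given in these sources, so the values of these genes are uncertain to that extent.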

How the data were processed

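Nascent RNA-seq of 4 libraries was used, and 56 other samples of the series were not analysed here. The authors deposited 1 RPKM value per RefSeq transcript and library (34929 transcripts). The submitters' processing notes name mm9, CASAVA 1.4 and TopHat2 for all 4 libraries, and Bowtie 1.1.1 and Bowtie2 for replicate 1 besides. For the counting program, annotation, use of strand and filters, the sources used here give nothing. Symbols for 34631 transcripts came from RefSeq GRCm38.p6, whose build differs. Whole reads were recovered from RPKM for 99.96% of the 31771 transcripts above 0 (within 0.0005 of a whole number). Without a replicate block, voom on them called 0 genes, and the fit with a block is given in the last section. Replicate number 2 is in the titles, and the unnumbered library of each group was called replicate 1.

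RPKM were scaled by median of ratios and tested with limma 3.58.1 (R 4.3.3) on log2(RPKM + 0.5) with a mean-variance trend, 2 libraries per group, for genes with a mean of at least 0.5 RPKM (Benjamini-Hochberg, two-sided, threshold 0.05). The fit was checked on simulated data drawn without a difference between replicate numbers, which the real libraries do show. Shares were tested by exact permutation (scipy 1.17.1). Members described in full were the phosphofructokinases, the pyruvate dehydrogenase kinases and those apart between groups by at least 0.3 on the log2 scale. The other genes named were those of the pathway and marker lists that met the same rule, with further examples picked with the values known. The members and lists were chosen with earlier results of these data known. For each result up to 16 alternatives were tried in scaling, pseudocount, filter, transcript, model, replicate block and libraries. Poisson intervals cover counting error only.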

Additional observations from a re-analysis of the deposited data

How the results depend on the processing

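Hk2, Pfkp, Pdk1, Ldhb, Mpc1, Slc16a3 and Esrrb kept their direction under every alternative that gave them a value. Without scaling the median over the tested members was -0.0510, 3 of 30 members lay higher in siEsrrb, and Pfkl had a log2 fold change of -0.0263. With a minimum of 2 RPKM, which leaves fewer genes, 3 of 19 were higher. No share of all genes is given for either count, so neither says anything about the members as a group. The planned replicate block in limma passed 0 genes. No label states that the numbers pair the libraries, and there are only 2 pairs. Deviations of same-numbered libraries from their group means correlated at r = 0.378 over the tested genes. With voom and a replicate block, which was also planned, 2773 of 9734 genes and 9 of 30 members passed. The median over the tested members was then -0.0353, and Esrrb was at -0.89. With at least 20 reads and a replicate block, chosen after seeing the data, 1228 of 9336 genes and 6 of 30 members passed, with Esrrb at -0.72. Counts of members apart do not depend on the model and have no value under voom or the block.

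Leaving out each library in turn gave 0 to 12 genes and in every case 0 members past the threshold, and a median from -0.0864 to 0.0613. Members with every remaining siEsrrb value below every remaining siCtrl value numbered 6 to 19, and members with them above 5 to 13. At the highest of these counts, 39.2% of all tested genes were lower (without siCtrl replicate 1) and 35.2% higher (without siCtrl replicate 2). Log2 fold changes ran from -0.0305 to 0.0546 for Pfkl, -0.0202 to 0.243 for Pfkm and -0.126 to 0.0338 for Pdk3. Differences in share ran from -1.36 to 4.42 percentage points for Hk2, -0.67 to 4.71 for Slc16a3, -3.72 to 2.86 for Pfkfb3, -1.89 to 1.59 for Eno1 and -1.24 to 0.21 for Aldoa, and kept their sign for Pfkp, Pdk1 and Ldhb. The lone library of a group was then assumed to vary like the others. The cause of these shifts was not tested. Depth limits Pdk4, Pdp1, Aldoc and Pdk2, which had under 60 reads in a replicate 1 library.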
